A study of Homo sapiens with 12 samples.

Results

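The genes described here are 10 members of the program that is set by the FOXO transcription factors and by genes of growth arrest and quiescence. They are the FOXO factors FOXO1, FOXO3 and FOXO4 together with TXNIP, BTG1, BTG2, SESN1, SESN3, CCNG2 and PIK3IP1. They were taken by gene name from a count table of 57353 gene names, and all 10 had enough counts to be tested, among 12998 genes. The libraries are bulk poly-A RNA-seq of MOLM-13, an established human acute myeloid leukemia (AML) cell line that carries an internal tandem duplication of the receptor kinase FLT3 and is labelled wild type (WT) in genotype. The cells were treated for 15 hr with vehicle or with 3 nM quizartinib (AC220), an inhibitor of FLT3, in 1 of 2 media. The first medium was RPMI, and the other was hBMSC-CM, which is medium conditioned by a human bone marrow stromal cell line and mixed with RPMI. This gave 4 groups of 3 replicate libraries, namely vehicle in RPMI, quizartinib in RPMI, vehicle in hBMSC-CM and quizartinib in hBMSC-CM. All groups are the same single cell line, and conditioned medium brings the secreted products of stromal cells but no contact with them. The comparisons ask how the drug changed the genes in each medium, how the medium changed them with and without the drug, and whether the drug response differed between the media.

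FOXO factors are forkhead transcription factors that sit at the end of the PI3K and AKT pathway. When growth factor receptors are active, AKT phosphorylates them and they are held in the cytoplasm, and when the pathway is shut off they enter the nucleus and switch on genes of cell cycle arrest, stress resistance and nutrient sensing. In FLT3-mutated AML the receptor signals without its ligand, and PI3K and AKT are among the pathways that it drives. An mRNA level shows the amount of transcript and not where a FOXO protein is, so the values below are levels of mRNA only.

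Total counts ranged from 19966546 to 31546104 per library with a median of 23559937, so that a floor of 3 counts corresponded to between 0.0951 and 0.150 CPM, which is a count scaled to the size of its library. All 10 genes lay above this floor in every library. Levels are CPM scaled by the trimmed mean of M values (TMM), with the mean and SD of 3 libraries. The study states that its replicates are biological, and the labels do not say how those of a group were made. Some libraries stood apart within their group. The chi-square per gene of pairs of replicates was 9.80 and 9.45 for the pairs with replicate 1 of quizartinib in hBMSC-CM and 3.16 for the pair without it. It was 10.5 and 6.77 for the pairs with replicate 3 of vehicle in hBMSC-CM and 3.73 for the pair without it. In RPMI it was 4.42 and 6.44 for the pairs with replicate 1 of quizartinib and 2.73 for the pair without it. With vehicle in RPMI it was 2.66 to 4.60. The calls and median changes of the 10 genes are also given without the libraries of hBMSC-CM named here, and the other values below include all libraries. In bulk samples, fewer cells that express a gene and less RNA per cell cannot be told apart. Markers of cell types were checked against the label. Of 12 myeloid markers 11 were tested, with a summed level of 1320 to 1370 CPM with vehicle and 2020 to 2030 CPM with quizartinib in RPMI, and of 1580 to 1610 CPM and 2330 to 2490 CPM in hBMSC-CM. LYZ was the most abundant of them over the 12 libraries, while PTPRC at 535 CPM and FLT3 at 454 CPM stood above LYZ at 354 CPM with quizartinib in RPMI. The myeloid markers went both ways. With quizartinib in RPMI 6 of the 11 rose and 4 fell, beside 40.1% and 39.2% of all tested genes. In hBMSC-CM 5 rose and 2 fell, beside 33.4% and 33.7%. CSF1R rose from 24.5 to 99.2 CPM and FLT3 from 209 to 454 CPM with quizartinib in RPMI. In the same comparison ITGAM fell from 22.6 to 11.3 CPM and CEBPA from 222 to 168 CPM. Of 12 stromal markers only TAGLN and COL1A1 were tested, and COL3A1, THY1, LUM, DCN, CXCL12 and POSTN had no count in any library. The summed stromal level was 2.70 to 3.23 CPM with vehicle in both media, 5.91 to 6.59 CPM with quizartinib in hBMSC-CM and 10.6 to 12.8 CPM with quizartinib in RPMI. COL1A1 rose from 0.177 ± 0.0869 to 4.61 ± 0.248 CPM with quizartinib in RPMI and from 0.225 ± 0.0792 to 0.992 ± 0.143 CPM in hBMSC-CM (SD, n = 3), with an interaction of -2.62 on the log2 scale (SE 0.529, edgeR quasi-likelihood test, Benjamini-Hochberg adjusted p = 0.000392). The vehicle levels of COL1A1 lay near the floor of 3 counts. TAGLN rose from 2.55 ± 0.0965 to 6.19 ± 0.899 CPM in RPMI and from 2.40 ± 0.272 to 4.39 ± 0.379 CPM in hBMSC-CM. The interaction of TAGLN, at -0.39 on the log2 scale (SE 0.203, edgeR adjusted p = 0.123), did not pass the test. Of 12 lymphoid and erythroid markers only NCAM1 was tested, and it made up nearly all of their summed 84.9 to 157 CPM. NCAM1 rose with quizartinib in RPMI, from 113 to 151 CPM, and stood at 91.2 CPM with vehicle and 90.3 CPM with quizartinib in hBMSC-CM, with an interaction of -0.44 on the log2 scale (edgeR adjusted p = 6.29e-05). The share of counts from mitochondrial genes was 0.683% to 0.790% with vehicle and 1.02% to 1.10% with quizartinib in RPMI, and 0.458% to 0.613% with vehicle and 0.683% to 0.947% with quizartinib in hBMSC-CM. The part of the mitochondrial share and of the marker levels in the results below was not tested.

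The 10 protein-coding genes lie apart from each other in the genome, on 8 chromosomes (GENCODE v44, GRCh38), and FOXO3 and SESN1 share chromosome 6 as TXNIP and BTG2 share chromosome 1. FOXO1 is at chr13:40555667-40666641 on the minus strand, FOXO3 at chr6:108559835-108684774 on the plus strand and FOXO4 at chrX:71095851-71103532 on the plus strand. PIK3IP1 is at chr22:31281594-31292534 and BTG1 at chr12:92140278-92145846, both on the minus strand. BTG2 is at chr1:203305491-203309602 and CCNG2 at chr4:77157207-77433388, both on the plus strand. TXNIP is at chr1:145992435-145996579, SESN1 at chr6:108984309-109094846 and SESN3 at chr11:95165513-95232541, all on the minus strand. Counts were taken over whole genes, so no exon or transcript is told apart.

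FOXO factors bind DNA at the forkhead core letters GTAAACA, read as TGTTTAC on the other strand. Both forms were searched in RefSeq windows (GRCh38.p14) from 250 bases before to 50 bases after each transcription start, and all 10 genes matched by symbol with 17 windows in all. The letters were present for 4 of the 10 genes, TXNIP, BTG1, PIK3IP1 and FOXO4, beside 4.19% of the 27305 genes with a window and 3.42% of all 35116 windows. The windows that hold them are shown because the match and its place can be read there for genes whose levels follow. They run 5′ to 3′ along the strand of the gene, and capitals mark the match. The TXNIP window is chr1:145996530-145996829 on the minus strand, 1 of 2 listed starts, with the match beginning 124 bases upstream of the start, and the BTG1 window is chr12:92145797-92146096 on the minus strand with the match 209 bases upstream. The PIK3IP1 window is chr22:31292439-31292738 on the minus strand, 1 of 2 listed starts, with the match 16 bases after the start. The FOXO4 window is chrX:71095601-71095900 on the plus strand with the match 23 bases after the start.
TXNIP: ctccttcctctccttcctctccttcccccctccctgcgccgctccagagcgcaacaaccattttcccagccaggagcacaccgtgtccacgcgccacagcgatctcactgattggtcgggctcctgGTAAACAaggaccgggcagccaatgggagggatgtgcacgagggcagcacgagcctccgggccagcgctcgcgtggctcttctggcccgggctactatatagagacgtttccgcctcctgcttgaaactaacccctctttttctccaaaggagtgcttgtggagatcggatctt
BTG1: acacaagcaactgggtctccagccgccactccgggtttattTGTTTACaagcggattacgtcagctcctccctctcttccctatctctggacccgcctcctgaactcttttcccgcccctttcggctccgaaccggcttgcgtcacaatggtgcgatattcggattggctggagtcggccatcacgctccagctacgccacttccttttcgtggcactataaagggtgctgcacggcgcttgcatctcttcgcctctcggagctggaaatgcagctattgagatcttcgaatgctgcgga
PIK3IP1: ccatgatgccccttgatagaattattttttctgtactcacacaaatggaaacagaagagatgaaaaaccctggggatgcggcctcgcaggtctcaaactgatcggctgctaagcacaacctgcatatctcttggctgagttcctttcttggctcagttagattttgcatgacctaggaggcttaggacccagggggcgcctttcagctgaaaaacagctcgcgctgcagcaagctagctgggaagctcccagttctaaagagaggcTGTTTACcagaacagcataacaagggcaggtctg
FOXO4: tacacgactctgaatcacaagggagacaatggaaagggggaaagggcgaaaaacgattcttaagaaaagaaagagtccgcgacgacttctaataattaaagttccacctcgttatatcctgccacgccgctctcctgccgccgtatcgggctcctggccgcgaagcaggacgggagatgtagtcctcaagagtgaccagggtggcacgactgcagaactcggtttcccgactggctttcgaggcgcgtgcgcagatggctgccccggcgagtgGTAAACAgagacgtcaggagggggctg
A match describes the letters and is not a binding site, and the windows of the other 6 genes do not hold these letters. The E-box letters CACGTG, which read the same on both strands, stood in the window of 1 of the 10 genes, CCNG2, 30 bases upstream, and in 8.77% of all genes with a window. The 4 genes with the forkhead letters rose with quizartinib in both media, as did the 6 without them.

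**Figure D1:**
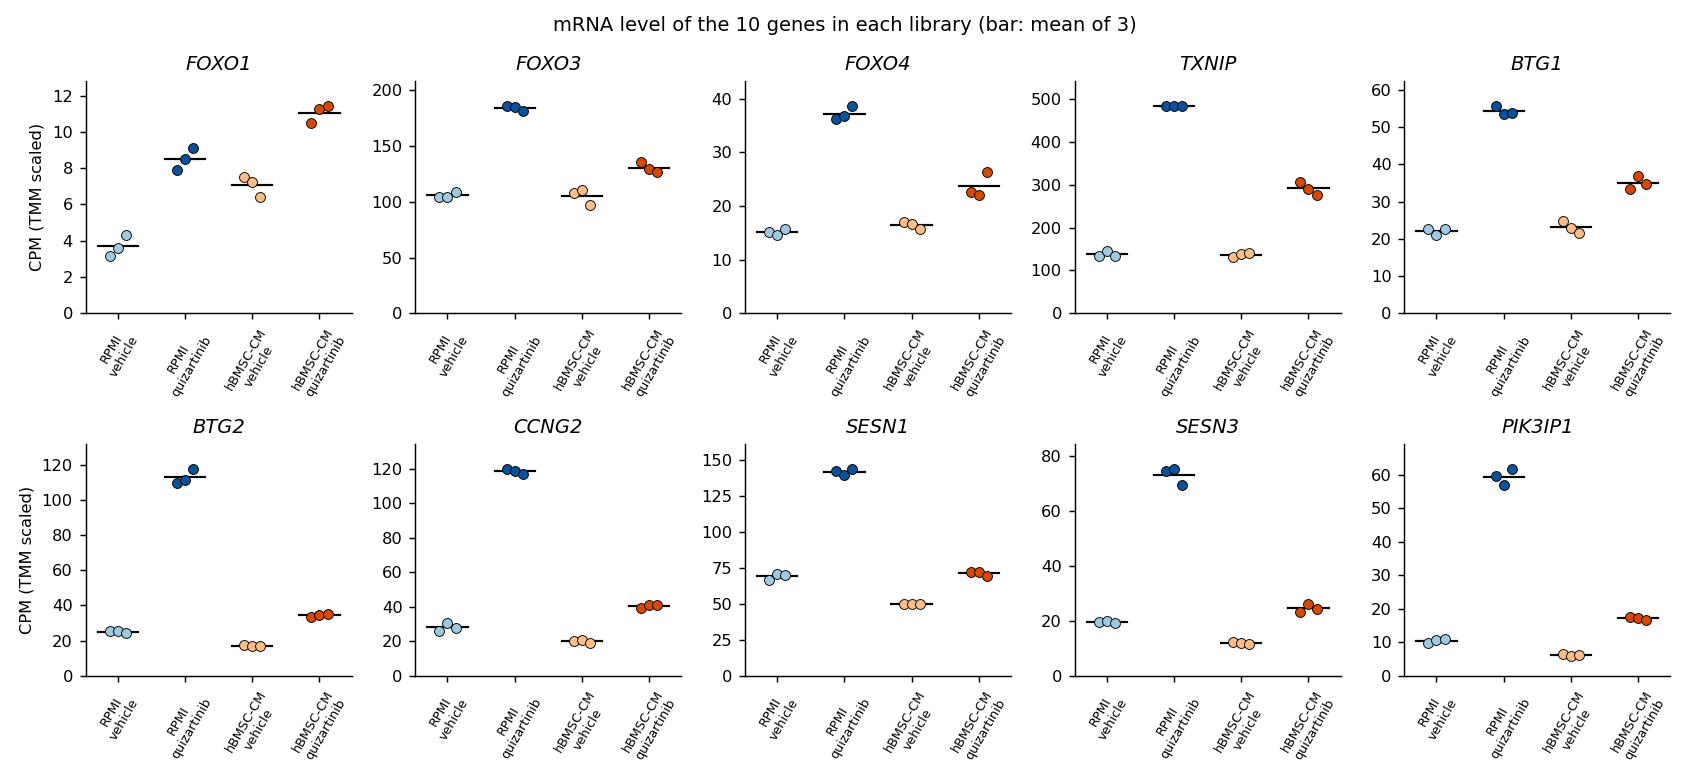
Level of each of the 10 genes in every library, in TMM-scaled CPM on a linear axis that starts at 0, by medium and treatment. Points are the 3 libraries of a group and bars their mean. In each medium the 3 quizartinib libraries lie above the 3 vehicle libraries for every gene, and the highest group is quizartinib in RPMI for all genes but FOXO1. The share of all tested genes with libraries apart in this way is not given here. By the edgeR test, 40.1% of all tested genes rose in RPMI and 33.4% in hBMSC-CM.

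Among the FOXO factors, FOXO3 was the most abundant transcript, and all 3 factors rose with quizartinib in both media. FOXO3, the family member with broad roles in survival and stress, stood at 105, 104 and 109 CPM with vehicle in RPMI and at 186, 185 and 181 CPM with quizartinib. In hBMSC-CM it stood at 108, 110.4 and 97.5 CPM with vehicle and at 135, 129 and 127 CPM with quizartinib. The vehicle libraries of the media overlapped, while the quizartinib libraries did not. FOXO3 was 1.74-fold higher with quizartinib in RPMI (log2 fold change 0.80, SE 0.0459, edgeR quasi-likelihood test with Benjamini-Hochberg adjustment, adjusted p = 9.09e-13) and 1.24-fold higher in hBMSC-CM (log2 fold change 0.31, SE 0.0465, edgeR adjusted p = 6.33e-06). These were the smallest increases among the 10 genes in both media.

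FOXO4, whose gene lies on the X chromosome, stood at 15.2, 14.6 and 15.6 CPM with vehicle in RPMI and at 36.3, 36.7 and 38.7 CPM with quizartinib. In hBMSC-CM it stood at 17.0, 16.7 and 15.7 CPM with vehicle and at 22.6, 22.1 and 26.3 CPM with quizartinib. The libraries with quizartinib in hBMSC-CM therefore fell between the vehicle libraries and those with quizartinib in RPMI, without overlap. The increase was 2.46-fold in RPMI and 1.43-fold in hBMSC-CM, with log2 fold changes of 1.30 (SE 0.068) and 0.52 (SE 0.0711).

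FOXO1, the member that carries insulin signalling to gene expression in many tissues, had the lowest level per kilobase of the 10 genes in RPMI. It stood at 3.15, 3.60 and 4.33 CPM with vehicle in RPMI, at 7.88, 8.52 and 9.08 CPM with quizartinib in RPMI, at 7.49, 7.26 and 6.41 CPM with vehicle in hBMSC-CM and at 10.5, 11.2 and 11.4 CPM with quizartinib in hBMSC-CM. It was the only 1 of the 10 genes with its highest level in the treated cells in hBMSC-CM. Quizartinib raised FOXO1 2.32-fold in RPMI (log2 fold change 1.21, SE 0.116) and 1.56-fold in hBMSC-CM (log2 fold change 0.64, SE 0.102). The medium alone raised it 1.94-fold (log2 fold change 0.96, SE 0.12, edgeR quasi-likelihood test, Benjamini-Hochberg adjusted p = 3.97e-06), which put FOXO1 at rank 112 from the highest of the 12998 tested genes in that comparison. The 4th family member, FOXO6, had at most 1 count and was not tested.

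The make-up of FOXO mRNA was followed per kilobase of merged exons (GENCODE v44, GRCh38), which allows genes of unlike length to be set side by side. The summed level of the 3 factors was 18.4 ± 0.531 CPM per kb with vehicle in RPMI (SD, n = 3), 35.3 ± 0.117 with quizartinib in RPMI, 19.2 ± 1.16 with vehicle in hBMSC-CM and 25.1 ± 0.473 with quizartinib in hBMSC-CM. FOXO3 made up 75% ± 0.433 of this sum with vehicle in RPMI and 68.1% ± 1.11 with quizartinib in RPMI. Its share was 71.3% ± 0.524 with vehicle and 67.7% ± 2.37 with quizartinib in hBMSC-CM. FOXO4 rose from 21.7% ± 0.357 to 27.9% ± 0.857 of the sum with the drug in RPMI, without overlap of the libraries. FOXO1 made up 3.36% ± 0.458 and 4.04% ± 0.275 in RPMI with vehicle and quizartinib and 6.14% ± 0.179 and 7.40% ± 0.391 in hBMSC-CM, so that every library in hBMSC-CM lay above every library in RPMI. An exact two-sided permutation test of 3 libraries against 3 cannot fall below p = 0.1, and the shares are given as a description.

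PIK3IP1, a membrane protein that restrains the catalytic subunit of PI3K, showed the largest response of the 10 genes to quizartinib. It stood at 9.95, 10.8 and 10.9 CPM with vehicle in RPMI and at 59.6, 56.9 and 61.8 CPM with quizartinib. In hBMSC-CM it stood at 6.66, 6.01 and 6.36 CPM with vehicle and at 17.5, 17.4 and 16.8 CPM with quizartinib. Treated cells in hBMSC-CM thus lay above vehicle cells in RPMI but far under treated cells in RPMI. The fold was 5.65 in RPMI (log2 fold change 2.50, SE 0.0616, edgeR quasi-likelihood test, Benjamini-Hochberg adjusted p = 7.06e-19) and 2.71 in hBMSC-CM (log2 fold change 1.44, SE 0.0758, edgeR adjusted p = 1.11e-12). In RPMI the change ranked 75 from the highest of 12998 genes, above 99.4% of them.

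BTG2, CCNG2 and BTG1 restrain cell division. BTG2 and BTG1 belong to a family that binds the CCR4-NOT deadenylase, and CCNG2 encodes cyclin G2, an unconventional cyclin that rises in arrested cells. BTG2 stood at 25.3, 25.5 and 24.6 CPM with vehicle and at 109.8, 112 and 118 CPM with quizartinib in RPMI, and at 17.6, 16.9 and 17.0 CPM with vehicle and 33.7, 34.5 and 35.1 CPM with quizartinib in hBMSC-CM. All 4 groups were apart, and the order from the lowest was vehicle in hBMSC-CM, vehicle in RPMI, quizartinib in hBMSC-CM and quizartinib in RPMI. The fold was 4.49 in RPMI (log2 fold change 2.17, SE 0.0486, edgeR quasi-likelihood test, Benjamini-Hochberg adjusted p = 1.73e-19) and 2.00 in hBMSC-CM (log2 fold change 1.00, SE 0.0545, edgeR adjusted p = 1.79e-12).

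CCNG2 stood at 26.1, 30.6 and 28 CPM with vehicle and at 120.2, 119 and 117 CPM with quizartinib in RPMI, and at 20.3, 21.1 and 19.3 CPM with vehicle and 39.4, 41.0 and 41.0 CPM with quizartinib in hBMSC-CM. Its 4 groups were apart in the same order as those of BTG2. The log2 fold change was 2.07 (SE 0.054) in RPMI and 1.00 (SE 0.0596) in hBMSC-CM. BTG1, also known for its high level in resting lymphocytes, stood at 22.8, 21.0 and 22.6 CPM with vehicle and at 55.8, 53.5 and 54.0 CPM with quizartinib in RPMI, and at 24.8, 22.9 and 21.5 CPM with vehicle and 33.4, 36.8 and 34.7 CPM with quizartinib in hBMSC-CM. For BTG1 the vehicle libraries of the media overlapped. Its log2 fold change was 1.30 (SE 0.06) in RPMI and 0.59 (SE 0.0621) in hBMSC-CM.

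TXNIP, SESN1 and SESN3 act in metabolism and the response to stress. TXNIP is an arrestin-like protein that binds thioredoxin and lowers glucose uptake, and it was the most abundant of the 10 transcripts per kilobase in every group. It stood at 135, 145 and 133 CPM with vehicle and at 483, 484 and 483 CPM with quizartinib in RPMI, and at 131, 138 and 139.8 CPM with vehicle and 307, 291 and 277 CPM with quizartinib in hBMSC-CM. The vehicle libraries overlapped between the media and the quizartinib libraries did not. The fold was 3.52 in RPMI (log2 fold change 1.82, SE 0.0467, edgeR quasi-likelihood test, Benjamini-Hochberg adjusted p = 1.35e-18) and 2.14 in hBMSC-CM (log2 fold change 1.10, SE 0.0465, edgeR adjusted p = 3.77e-14).

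The sestrins SESN1 and SESN3 bind the GATOR complex and restrain mTORC1. SESN1 stood at 66.4, 70.8 and 70.1 CPM with vehicle and at 142, 139 and 144 CPM with quizartinib in RPMI, and at 49.8, 49.6 and 49.8 CPM with vehicle and 72.1, 71.9 and 69.6 CPM with quizartinib in hBMSC-CM. The treated libraries in hBMSC-CM overlapped the vehicle libraries in RPMI. SESN3 stood at 19.8, 19.8 and 19.4 CPM with vehicle and at 74.6, 75.3 and 69.4 CPM with quizartinib in RPMI, and at 12.2, 11.8 and 11.5 CPM with vehicle and 23.2, 26.3 and 24.3 CPM with quizartinib in hBMSC-CM. All 4 groups of SESN3 were apart. SESN1 rose 2.05-fold in RPMI and 1.43-fold in hBMSC-CM, with log2 fold changes of 1.04 (SE 0.0403) and 0.52 (SE 0.0427). SESN3 rose 3.72-fold and 2.07-fold, with log2 fold changes of 1.90 (SE 0.0572) and 1.05 (SE 0.067).

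**Figure D2:**
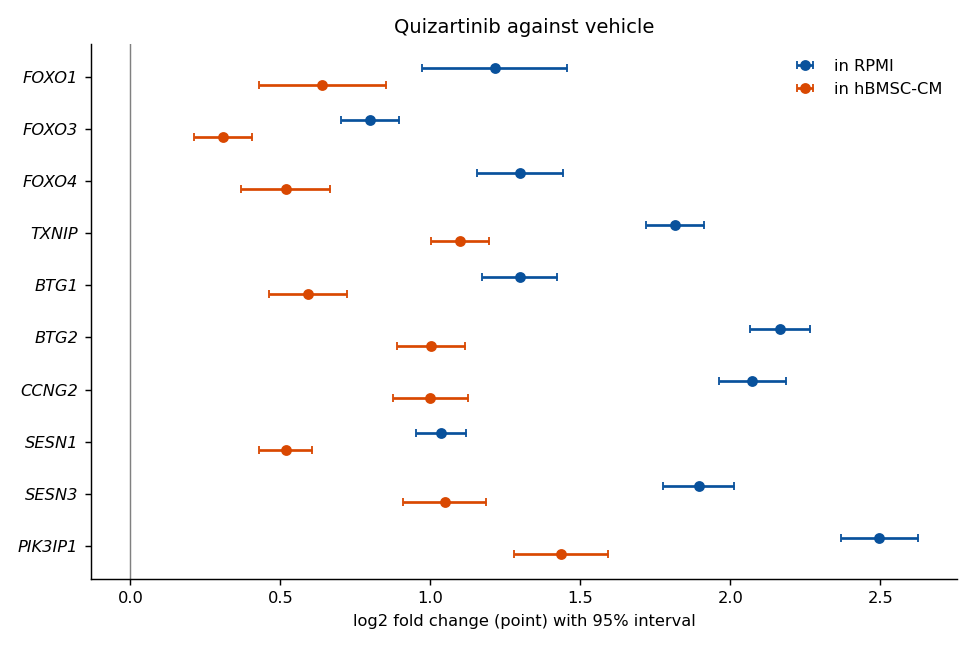
Log2 fold change of quizartinib against vehicle for each of the 10 genes in RPMI and in hBMSC-CM, with 95% intervals from the edgeR fit. Every interval lies above 0, and for each gene the interval in hBMSC-CM lies under the interval in RPMI without overlap.

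With quizartinib in RPMI all 10 genes rose, by log2 fold changes of 0.80 to 2.50 with a median of 1.56, beside 5211 of all 12998 tested genes that rose (40.1%) and a median of 0.0249 over all tested genes. In hBMSC-CM all 10 rose again, by 0.31 to 1.44 with a median of 0.82, beside 33.4% of all tested genes and a median of 0.0094. All 10 still rose without replicate 1 of quizartinib in hBMSC-CM, with a median of 0.85, and without replicate 3 of vehicle in hBMSC-CM, with a median of 0.78. Since the drug changed a large part of the transcriptome, each size is set beside those of all tested genes. FOXO3, the least changed, rose more than 86.2% of all genes in RPMI and more than 74.2% in hBMSC-CM. The other 9 genes rose more than at least 91.0% of all genes in RPMI and more than at least 84.7% in hBMSC-CM.

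Without the drug, the medium divided the genes into 3 sets. FOXO1 was higher in hBMSC-CM, as were 16.6% of all tested genes. BTG2, SESN1, SESN3, CCNG2 and PIK3IP1 were lower in hBMSC-CM, as were 15.5% of all tested genes. SESN3 and PIK3IP1 fell most, with log2 differences of -0.73 (SE 0.0683) and -0.72 (SE 0.0809), and both lay among the lowest of all genes in this comparison, with 1.55% and 1.60% of genes under them. BTG2, CCNG2 and SESN1 had log2 differences of -0.55, -0.48 and -0.47, with edgeR Benjamini-Hochberg adjusted p between 3.91e-08 and 4.66e-06. FOXO3, FOXO4, TXNIP and BTG1 did not pass the test. Their log2 differences of hBMSC-CM against RPMI were -0.0077 (95% interval -0.11 to 0.09), 0.13 (-0.03 to 0.28), -0.010 (-0.11 to 0.09) and 0.07 (-0.07 to 0.20). Without replicate 3 of vehicle in hBMSC-CM the same number of 6 genes passed the test, with a median over the 10 of -0.24. For FOXO4 the 3 libraries in hBMSC-CM all lay above the 3 in RPMI, although the test gave an edgeR adjusted p of 0.208.

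**Figure D3:**
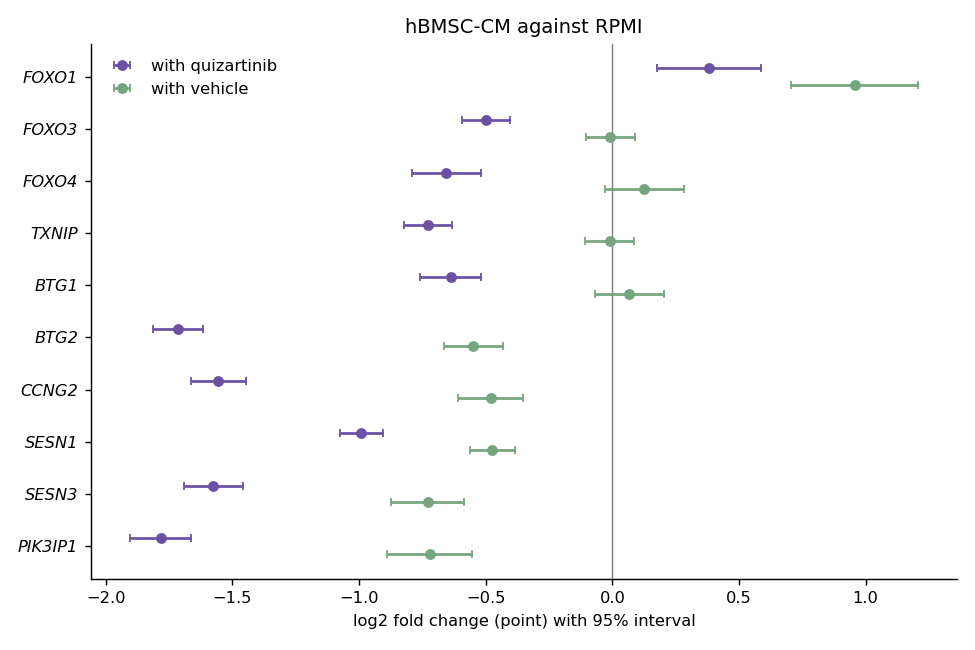
Log2 fold change of hBMSC-CM against RPMI for each of the 10 genes, with quizartinib and with vehicle, with 95% intervals from the edgeR fit. With quizartinib every gene but FOXO1 lies under 0. With vehicle the intervals of FOXO3, FOXO4, TXNIP and BTG1 include 0.

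With the drug present, hBMSC-CM lowered 9 of the 10 genes relative to RPMI, beside 34.3% of all tested genes, and FOXO1 was higher, beside 35.5% of all tested genes. PIK3IP1, BTG2, SESN3 and CCNG2 had the largest differences, with log2 values of -1.78 (SE 0.0579), -1.71 (SE 0.0472), -1.58 (SE 0.0561) and -1.56 (SE 0.0523). Few tested genes had lower values, namely 0.400%, 0.500%, 0.669% and 0.754% of genes in this order. SESN1 followed at -0.99, TXNIP at -0.73, FOXO4 at -0.66, BTG1 at -0.64 and FOXO3 at -0.50. The largest edgeR Benjamini-Hochberg adjusted p among these 9 genes was 1.43e-08, and the difference of FOXO1 was 0.38 (SE 0.0982, edgeR adjusted p = 0.00172). Without replicate 1 of quizartinib in hBMSC-CM all 10 passed the test, with a median of -0.88, beside -0.86 with it. FOXO1 differed between the media by less with the drug than without it. In each of these 10 comparisons the 3 libraries of one medium did not overlap the 3 of the other. The share of all tested genes that were apart in this way is not given here. By the test, 34.3% of all tested genes were lower and 35.5% higher.

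The difference between the drug responses in the 2 media was tested as the interaction of drug and medium. It was negative for all 10 genes, with a median of -0.75, and all 10 passed the test, beside 19.2% of all tested genes that passed it with a negative value and a median of 0.00999 over all genes. All 10 also passed without replicate 1 of quizartinib in hBMSC-CM (median -0.75) and without replicate 3 of vehicle in hBMSC-CM (median -0.78). BTG2 had the largest value at -1.16 (SE 0.0733, edgeR quasi-likelihood test, Benjamini-Hochberg adjusted p = 4.30e-11), followed by CCNG2 at -1.07 (SE 0.0806) and PIK3IP1 at -1.06 (SE 0.101). The smallest was that of FOXO3 at -0.49 (SE 0.0653, edgeR adjusted p = 3.04e-06). FOXO1 had an interaction of -0.57 with the largest error of the 10 genes (SE 0.156, edgeR adjusted p = 0.00501). As a share of the log2 change in RPMI, the change in hBMSC-CM was 38.7% for FOXO3, 39.9% for FOXO4, 45.6% for BTG1, 46.3% for BTG2, 48.2% for CCNG2, 50% for SESN1, 52.7% for FOXO1, 55.3% for SESN3, 57.5% for PIK3IP1 and 60.4% for TXNIP. The median of these shares was 49.1%. Over all 5211 genes that rose in RPMI the median share was 59.4%, with quartiles at 37.0% and 81.4%. All 10 genes lay between these quartiles, and every one but TXNIP lay under the median.

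**Figure D4:**
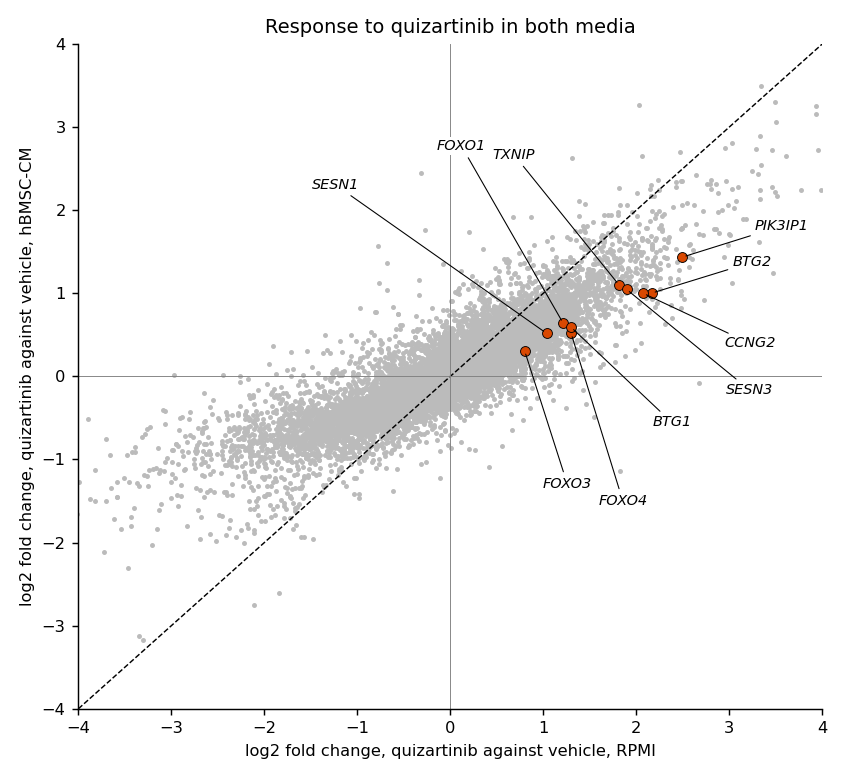
Log2 fold change of quizartinib against vehicle in RPMI (horizontal axis) and in hBMSC-CM (vertical axis) for 12998 tested genes, with the 10 genes in orange. The dashed line marks equal change, and 23 genes lie outside the axes. The 10 genes lie to the right of 0 and under the dashed line, within the cloud of genes that rose less in hBMSC-CM.

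Treated cells in hBMSC-CM were also set beside vehicle cells in RPMI, as levels. The ratio of the means was 3.00 for FOXO1, 2.12 for TXNIP, 1.64 for PIK3IP1, 1.58 for BTG1, 1.57 for FOXO4, 1.43 for CCNG2, 1.37 for BTG2, 1.25 for SESN3, 1.23 for FOXO3 and 1.03 for SESN1. For 9 of the 10 genes the treated libraries in hBMSC-CM all lay above the vehicle libraries in RPMI, beside 32.7% of all tested genes, and SESN1 was the exception.

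Per kilobase of merged exons, the order of levels with vehicle in RPMI began with TXNIP at 38.1 ± 1.81 CPM per kb (SD, n = 3) and FOXO3 at 13.8 ± 0.322. SESN1 at 9.50 ± 0.326 and BTG2 at 9.12 ± 0.180 differed by little more than their SDs. BTG1 at 4.55 ± 0.205, FOXO4 at 3.99 ± 0.137 and CCNG2 at 3.81 ± 0.302 followed, of which the last 2 lay within their spread. PIK3IP1 at 2.77 ± 0.135, SESN3 at 1.86 ± 0.0214 and FOXO1 at 0.620 ± 0.101 were lowest. With quizartinib in RPMI the level of TXNIP was 134 ± 0.120 CPM per kb, that of BTG2 41.0 ± 1.51, and that of FOXO3 24.0 ± 0.312, so that BTG2 passed FOXO3 and SESN1 in this order. CCNG2 at 16 ± 0.202 and PIK3IP1 at 15.6 ± 0.644 then lay within their spread. In hBMSC-CM the treated level of BTG2 was 12.5 ± 0.254 CPM per kb and stood under that of FOXO3 at 17.0 ± 0.592. Merged exons cover all annotated transcripts of a gene, also those that these cells may not use, which lowers the value of genes with many of them.

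The patterns over the 4 groups were compared by the root mean square difference of log2 group means after each gene was centred, over the 9288 tested genes whose mean reached 10 CPM. FOXO4 and BTG1 differed by 0.0302 on this measure, and BTG1 was the 2nd nearest gene to FOXO4 after NIPAL3 at 0.0143. BTG2 and CCNG2 were nearest to each other with 0.0661, and SESN3 differed from CCNG2 by 0.0949 and from BTG2 by 0.0990. The nearest gene to FOXO3 was KMT2C at 0.0102, to SESN1 CACNA1A at 0.00211, to SESN3 SH2D3C at 0.0447, to TXNIP RTN2 at 0.0647, to FOXO1 SLC43A2 at 0.0743 and to PIK3IP1 OAS1 at 0.115. These values describe 4 group means from 12 libraries and carry no test.

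Other reported targets of FOXO factors moved mostly as the 10 genes did. Of 30 such genes 21 were tested, and with quizartinib in RPMI 16 rose and 2 fell, with a median log2 fold change of 0.63, beside 40.1% and 39.2% of all tested genes that rose and fell. FBXO32, a ubiquitin ligase of muscle wasting, rose by 2.46 (SE 0.0968) on the log2 scale, from 3.18 to 17.8 CPM, and TSC22D3, also known as GILZ, rose by 2.22 (SE 0.0899), from 7.63 to 35.5 CPM. SOD2, the mitochondrial superoxide dismutase, fell by 0.85 (SE 0.0475) on the log2 scale, and CITED2 fell by 0.20, a call that was lost with upper-quartile factors. In hBMSC-CM 15 rose and 2 fell, with a median of 0.32, beside 33.4% and 33.7% of all tested genes. Between treated cells 12 of the 21 were lower and 3 higher in hBMSC-CM, at a median of -0.36, beside 34.3% and 35.5% of all tested genes. The interaction passed the test with a negative value for 12 and a positive value for 3, beside 19.2% and 26.1% of all tested genes. The shares of all tested genes given here are the background of the counts of the lists that follow. With vehicle 6 were higher and 4 lower in hBMSC-CM, beside 16.6% and 15.5% of all tested genes. Of the 23 genes of this list with a promoter window, BCL2L11, MXI1 and TSC22D3 held the forkhead letters. BCL2L11, which encodes the cell death protein BIM, rose by 0.47 (SE 0.0798) in RPMI and by 0.36 (SE 0.0813) in hBMSC-CM on the log2 scale. MXI1, an antagonist of MYC, rose by 0.36 (SE 0.0537) in RPMI and had a value of -0.05 (SE 0.0524) in hBMSC-CM, which did not pass the test.

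**Figure D5:**
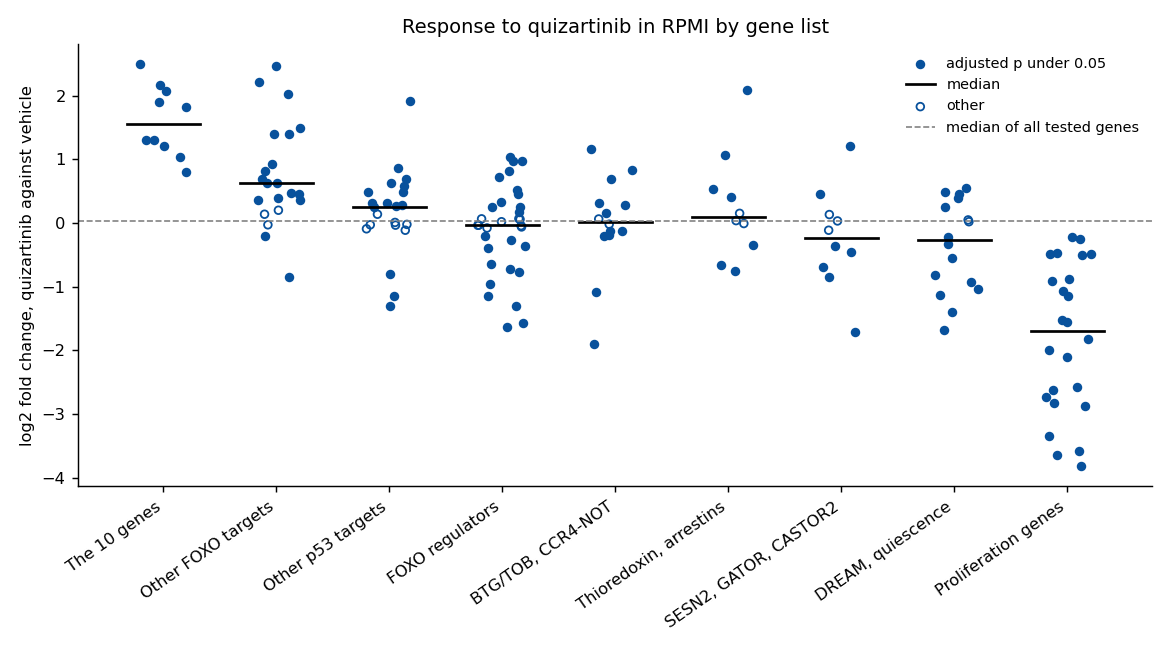
Log2 fold change of quizartinib against vehicle in RPMI for the 10 genes and for 8 lists of related genes, 1 point per tested gene outside the 10. Filled points passed the edgeR test at an adjusted p of 0.05, bars are medians, and the dashed line is the median of all tested genes. The 10 genes and most FOXO targets lie above the dashed line, and all 24 proliferation genes lie under it.

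Genes that regulate FOXO factors, such as PI3K and AKT subunits, ubiquitin ligases and acetyltransferases, moved both ways, in shares near those of all tested genes. Of 32 tested 11 rose and 12 fell with quizartinib in RPMI, with a median of -0.035 that turned to 0.07 with upper-quartile factors, where 15 rose and 12 fell. In hBMSC-CM 12 rose and 11 fell. CREBBP, an acetyltransferase, rose by 0.97 (SE 0.0788) on the log2 scale. SKP2, the ubiquitin ligase subunit that targets FOXO1, fell by 1.64 (SE 0.0485) on the log2 scale and PRMT1, a methyltransferase, fell by 1.57 (SE 0.0535).

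The families of the 10 genes were mixed. Of 14 other BTG, TOB and CCR4-NOT genes 6 rose and 6 fell with quizartinib in RPMI. TOB1 rose by 0.83 (SE 0.105) on the log2 scale and the deadenylase CNOT6L by 1.16 (SE 0.0663), whereas BTG3 fell by 1.90 (SE 0.113) and CNOT9 fell by 1.08 (SE 0.0429). TOB2 had a value of 0.06 that did not pass the test. Of 10 other genes in the list of thioredoxin and arrestin genes, which also holds MLXIP and MLX, 4 rose and 3 fell. MLXIP rose by 0.53 (SE 0.0651) and MLX fell by 0.34 (SE 0.0445) on the log2 scale. ARRDC3 rose by 1.07 (SE 0.0481) in RPMI and 0.90 (SE 0.0519) in hBMSC-CM, and ARRDC4, at a mean of only 1.03 CPM, rose by 2.09 (SE 0.258) in RPMI, while ARRDC2 had a value of 0.04 and did not pass the test. Thioredoxin itself, TXN, fell by 0.76 (SE 0.0496) on the log2 scale and its reductase TXNRD1 fell by 0.66 (SE 0.0402).

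The remaining sestrin, SESN2, is best known as a stress-induced gene. It had a log2 fold change of -0.11 (SE 0.0632, edgeR quasi-likelihood test, Benjamini-Hochberg adjusted p = 0.104) with quizartinib in RPMI, and it fell by 0.61 (SE 0.0657) on the log2 scale in hBMSC-CM. Its interaction was -0.50 (SE 0.0912). The list holds SESN2, GATOR components, CASTOR1 and CASTOR2, and of its 10 tested genes 2 rose and 5 fell in RPMI. CASTOR1 had at most 9 counts and was not tested. CASTOR2, named after its values were seen since its mean was 4.66 CPM, rose by 1.22 on the log2 scale. Among the GATOR genes were WDR59, which rose by 0.46, SEH1L, which fell by 1.72, and MIOS, which fell by 0.84 on the log2 scale. CCNG1, the relative of CCNG2, rose by 0.86 (SE 0.0546) in RPMI and by 0.55 (SE 0.0547) in hBMSC-CM. It was abundant, with 389 CPM with vehicle and 707 CPM with quizartinib in RPMI.

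Some of the 10 genes, such as SESN1 and BTG2, are also known as p53 targets. Of 22 other tested p53 targets 12 rose and 3 fell with quizartinib in RPMI, with a median of 0.26, and 12 rose and 4 fell in hBMSC-CM. TP53INP1 rose by 1.91 (SE 0.0552) on the log2 scale, from 16.1 to 60.3 CPM, while AEN fell by 1.30 (SE 0.0556) and PLK3 fell by 1.15 (SE 0.108). With vehicle 11 of the 22 were lower in hBMSC-CM, beside 15.5% of all tested genes, and in treated cells 13 were lower and 4 higher. Some genes, such as CDKN1A and GADD45A, stand in both target lists.

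Of 16 tested genes of the DREAM complex and of quiescence, which hold cell cycle genes silent in resting cells, 5 rose and 9 fell with quizartinib in RPMI, with a median of -0.27. RBL2, the pocket protein p130 of resting cells, rose by 0.46 (SE 0.049) on the log2 scale, from 127 to 175 CPM, while RBL1, its relative p107, fell by 1.41 (SE 0.0459), from 135 to 50.7 CPM. TFDP2 rose by 0.49 (SE 0.0877) and TFDP1 fell by 1.69 (SE 0.0414). All 24 proliferation genes fell with quizartinib in both media (23 of 24 in RPMI with upper-quartile factors or library size alone), with a median of -1.69 in RPMI and -0.92 in hBMSC-CM. CCNE2 and CCNE1, the cyclins of entry into S phase, had log2 fold changes of -3.82 (SE 0.072) and -3.65 (SE 0.099) in RPMI and of -1.5 and -1.35 in hBMSC-CM. Between treated cells 14 of the 24 were higher and 7 lower in hBMSC-CM, at a median of 0.84, and the interaction passed the test with a positive value for 15 and a negative value for 1, or for 3 with DESeq2 size factors or upper-quartile factors. With the drug the 10 genes thus rose and the proliferation genes fell, and the median change of each set was smaller in hBMSC-CM.

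Reads from near-identical copies could enter the values of some of the 10 genes. FOXO3B, a copy of FOXO3, had 44 to 83 counts per library with a mean of 2.52 CPM, small beside FOXO3. BTG1P1 had at most 4 counts and the antisense gene PIK3IP1-AS1 at most 9. Of the annotated genes that overlap the 10 and stand in the table, LINC01619 had at most 11 counts. The sources used here do not say if reads were counted by strand, so reads from an overlapping antisense transcript could not be separated.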

How the data were processed

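The authors trimmed reads with BBDuk, aligned them to the human genome (hg38, Ensembl) with STAR 2.6.0a, and deposited raw counts per gene name, with identifiers that share a name added together. A table of 12 libraries was used, and each column was matched to its sample by label. From these counts, genes were kept if the mean raw count and the mean CPM both reached 1 (12998 of 57353 names, at least 99.68% of the counts of every library). Counts were scaled with TMM and fitted with the quasi-likelihood functions of edgeR 4.0.16 (R 4.3.3), with 4 group means and 8 residual degrees of freedom. Two-sided p-values were adjusted by the method of Benjamini and Hochberg over all tested genes, at a threshold of 0.05. The study tested with limma, and limma-voom (limma 3.58.1) and the DESeq2 1.42.0 Wald test were alternatives, beside other scaling factors, filters, a replicate block, a fit of only the groups compared, and leaving out each library. The procedure was tested on simulated data in which a small part of the genes was changed, with quizartinib in RPMI only. A change as broad as that in these data was not simulated.

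The 10 genes and the lists of related genes were chosen with earlier results of these data known. The lists were written from general knowledge. From each list the text names up to 2 of the largest increases and decreases in RPMI among genes that passed the test with a mean of at least 5 CPM, and FOXO6, BTG3, TOB1, TOB2, SESN2, CCNG1, ARRDC2, ARRDC3 and ARRDC4 whatever their change. BCL2L11 and MXI1 were named for their promoter letters, and MLX and CASTOR1 to show what their lists hold. No 2 replicates agreed within sampling noise. Promoter windows are from RefSeq (GRCh38.p14) and gene lengths from GENCODE v44, which is a later annotation than that of the counts. Arms with other inhibitors were not analysed here. The precision of each value is the spread of 3 libraries, and floors cover counting error only.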

Additional observations from a re-analysis of the deposited data

Results flagged for a closer look

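The response to quizartinib differed between the media for each of the 10 genes by the interaction term of the edgeR quasi-likelihood fit, with Benjamini-Hochberg adjusted p between 4.30e-11 and 0.00501. On the log2 scale the interaction was -0.57 for FOXO1, -0.49 for FOXO3, -0.78 for FOXO4, -0.72 for TXNIP, -0.71 for BTG1, -1.16 for BTG2, -0.52 for SESN1, -0.85 for SESN3, -1.07 for CCNG2 and -1.06 for PIK3IP1. In all 10 cases the increase was smaller in hBMSC-CM. Of all tested genes, 19.2% passed the test with a negative interaction. Over the 5211 genes that rose in RPMI, the change in hBMSC-CM had a median share of 59.4% of that in RPMI. The quartiles of this share were 37.0% and 81.4%, and all 10 genes lay between them. Without replicate 1 of quizartinib in hBMSC-CM, or without replicate 3 of vehicle in hBMSC-CM, the interaction of all 10 still passed the test.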

How the results depend on the processing

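Of 800 alternative values for the 10 genes over 5 comparisons, 796 kept their direction and their side of the threshold. The other 4 were values near 0 that passed the test in no setting: with vehicle, the difference of hBMSC-CM from RPMI ranged from -0.0416 to 0.0417 for FOXO3 and from -0.0339 to 0.0294 for TXNIP when single libraries were left out. The weakest calls were those of FOXO1, whose adjusted p reached 0.0275 for the interaction and 0.0126 for the media with quizartinib. The number of genes called over the whole table ranged from 8582 to 12259 for quizartinib in RPMI (10307 as reported), from 7347 to 9291 in hBMSC-CM (8722), from 7668 to 10097 for the media with quizartinib (9076), from 3310 to 4254 with vehicle (4174) and from 5359 to 5986 for the interaction (5881).

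Scaling moved the balance of all genes but no call of the 10. With quizartinib in RPMI, upper-quartile factors moved the median of all genes by 0.102, and with quizartinib in hBMSC-CM library size alone moved it by 0.104. In hBMSC-CM, 60% of the called genes rose with upper-quartile factors and 62.8% with library size alone, beside 49.8% as reported. The lists of related genes were also recounted under each scaling, a check chosen after seeing the data, and none of the 34 named genes that passed the test changed sign. The calls of CITED2, MIOS and CEBPA for quizartinib in hBMSC-CM were lost with upper-quartile factors and with library size alone, that of CITED2 in RPMI with upper-quartile factors, and that of RBL1 between the media with vehicle with DESeq2 size factors. Without a filter on low counts 70.6% of the called interactions were positive, beside 57.6%.

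Same-numbered replicates did not deviate together, since the correlations of their deviations lay between -0.227 and 0.0979 over 18 pairs and 6 of 36 best correlations were with the same number. With the replicate number as a block, the genes called were 10224, 8611, 8962, 3953 and 5679 in the 5 comparisons, and all calls among the 10 genes held.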
